A study of Mus musculus with 4 samples.

Results

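The regions described here were IRF4 peaks of Junb-sufficient regulatory T (Treg) cells that stood alone and had no counterpart without Junb. They were selected on measured values, the presence or absence of listed peaks, as peaks of the Junb-sufficient IRF4 list that overlapped, by 1 bp or more, no JunB peak, no BATF peak and no IRF4 peak of Junb-deficient cells. This left 7106 of the 31093 IRF4 peaks of Junb-sufficient cells (22.9%, exact binomial 95% interval 22.4 to 23.3%), out of 103355 peaks in the 4 lists. They are called missing peaks here. The name refers to the peak list of Junb-deficient cells alone, and binding below the calling threshold there was not measured. The 8410 IRF4-alone peaks that did overlap a Junb-deficient IRF4 peak are called kept peaks. The missing peaks were 45.8% of all 15516 IRF4-alone peaks. Among all 31093 IRF4 peaks, 35.0% had no Junb-deficient counterpart, and since the choice of peaks used this comparison, nothing was read from either share.

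Chromatin immunoprecipitation-sequencing (ChIP-seq), in which an antibody pulls down a protein and the DNA attached to it is sequenced, was performed on mouse CD4+CD25+ Treg cells of the C57BL/6 strain, taken from spleens and activated for 60 h through CD3 and CD28 in the presence of IL-2. Junb-sufficient cells gave 1 library each for JunB, BATF and IRF4, and Junb-deficient cells gave 1 for IRF4. The paper states that ChIP-seq was repeated, and whether a list stands for a single experiment or several is not given in the sources used here. The sample labels give the genotypes as Foxp3cre JUNB+/+ and Foxp3cre JUNBFl/Fl, in which Cre is driven in Treg cells, whereas the paper describes Junb fl/fl and Cd4Cre Junb fl/fl mice, in which Cre acts in all αβ T cells. The 2 sources cannot be reconciled from the files, so the cells are called Junb-sufficient and Junb-deficient, and the paper's methods give mice of 6 to 12 weeks for its experiments in general. In Junb-sufficient cells the antibody field of the labels names IRF4 where the title names BATF, and the reverse. The sample titles were used, and the values with both lists exchanged are given below for the motifs whose call they end. Recorded totals lay between 21127029 and 27399986 tags (aligned reads), and the share of tags in peaks was 4.27% for JunB, 5.03% for BATF and 11.15% to 12.76% for IRF4. Whether weak JunB or BATF sites were absent from their lists was not tested. The lists hold positions only, with a score of 1 for every peak, so that no peak height could be compared and no test between genotypes was possible with 1 library each. As a check of the cell type, 13 of 14 Treg identity and T cell marker genes had an IRF4 peak within 10 kb of a transcription start site (TSS), against 3 of 10 B cell markers, 6 of 12 myeloid markers, 5 of 10 neuronal genes, 4 of 10 liver genes and 49.1% of all protein-coding genes.

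IRF4 is an interferon regulatory factor that is induced by antigen receptor signalling and is needed for the effector stage of Treg cells. By itself it binds DNA weakly, as pairs at interferon-stimulated response elements (ISRE), and it binds more firmly next to a partner. With ETS factors such as PU.1 it occupies ETS-IRF composite elements (EICE), and with dimers of BATF and a JUN protein it occupies AP-1-IRF composite elements (AICE). AP-1 is a family of dimers of JUN, FOS and BATF proteins that recognise a short palindrome-like site. CTCF is a zinc finger protein that binds a long site at the borders of chromatin domains.

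Fixed consensus sequences were matched on both strands of the mm9 genome within 100 bp of each peak centre. The motifs that separated missing from kept peaks were the AP-1 site TGAGTCA, AICE taken as GAAA directly before TGANTCA or TTTC placed 4 free bases before it, CTCF taken as CCA, AG and GGC with 2 free bases between each, ISRE taken as GAAA repeated after 2 free bases, and several others named below. EICE was taken as ISRE with GGAA in place of the first GAAA. An AICE match often holds an AP-1 match. For each of these the 2 missing peaks that stood highest in the list and held a match are shown, on the plus strand, 5′ to 3′, with the match in capitals, so that the same site can appear as its reverse complement. The AP-1 site read on the other strand is TGACTCA. The first pair of lines shows AP-1 matches, and AICE, CTCF, ISRE and EICE follow.
AP-1 match in an intron of Drg1, upstream of Sfi1, chr11:3093760-3093860: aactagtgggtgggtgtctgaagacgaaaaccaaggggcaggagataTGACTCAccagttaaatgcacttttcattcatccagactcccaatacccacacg
AP-1 match in intergenic sequence upstream of Smndc1, chr19:53499158-53499258: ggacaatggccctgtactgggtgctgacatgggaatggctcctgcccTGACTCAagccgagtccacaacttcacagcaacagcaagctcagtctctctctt
AICE match in intergenic sequence, nearest TSS Ets1, chr9:32841898-32841998: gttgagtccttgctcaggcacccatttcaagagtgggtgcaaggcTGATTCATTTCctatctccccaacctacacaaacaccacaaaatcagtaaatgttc
AICE match in an intron, nearest TSS Phf20, chr2:156084328-156084428: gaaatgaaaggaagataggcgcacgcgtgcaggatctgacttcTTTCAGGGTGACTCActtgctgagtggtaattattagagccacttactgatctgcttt
CTCF match in intergenic sequence upstream of Gna13, chr11:109192793-109192893: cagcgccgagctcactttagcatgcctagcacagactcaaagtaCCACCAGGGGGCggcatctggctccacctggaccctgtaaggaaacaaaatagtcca
CTCF match in intergenic sequence upstream of Slc22a16, chr10:40249592-40249692: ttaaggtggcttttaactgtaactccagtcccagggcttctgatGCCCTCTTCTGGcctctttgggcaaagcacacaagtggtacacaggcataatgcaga
ISRE match in intergenic sequence, nearest TSS Cpox, chr16:58685857-58685957: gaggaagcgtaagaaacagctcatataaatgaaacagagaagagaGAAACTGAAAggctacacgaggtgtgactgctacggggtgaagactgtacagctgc
ISRE match in intergenic sequence upstream of Fas, chr19:34361802-34361902: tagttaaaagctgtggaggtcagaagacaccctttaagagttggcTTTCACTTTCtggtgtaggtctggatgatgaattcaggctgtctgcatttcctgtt
EICE match in an intron of Cd200r1, chr16:44779086-44779186: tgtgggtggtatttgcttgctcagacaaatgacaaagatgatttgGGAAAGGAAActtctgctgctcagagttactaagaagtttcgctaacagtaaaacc
EICE match in an intron, nearest TSS Gm16181, chr17:35363696-35363796: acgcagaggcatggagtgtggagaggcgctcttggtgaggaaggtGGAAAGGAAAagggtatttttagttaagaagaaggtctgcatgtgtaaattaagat
The match centres of these AP-1 windows lay 29 bp to one side and 83 bp to the other side of the peak centres. Fas encodes a death receptor, Ets1 a lymphocyte ETS factor and Cd200r1 an inhibitory receptor for CD200. The peak named by Ets1 was centred 338314 bp from that TSS, beyond the 100 kb used for genes here, and was not assigned to Ets1. The peaks upstream of Smndc1, Gna13 and Slc22a16 were centred 34228, 31242 and 40591 bp from the TSS. The missing peak at the first CTCF sequence was also 1 of 3 with the smallest gap to a Junb-deficient IRF4 peak, 13 bp, and so lay just outside the rule.

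Of the 18 motifs searched, the AP-1 site differed most between missing and kept peaks. It was present in 1775 of 7106 missing peaks (24.98%, 95% interval 24.0 to 26.0%) and in 841 of 8410 kept peaks (10.0%, 9.37 to 10.7%), although neither class overlapped a JunB or BATF peak. The difference was 14.98 percentage points (13.8 to 16.2). In windows 5 kb downstream of the missing peaks the AP-1 share was 3.55%, among IRF4 peaks that did overlap JunB or BATF it was 35.9%, and over all IRF4 peaks of Junb-sufficient cells it was 26.4%. The missing peaks were thus close to the whole list in this share, and the kept peaks were below it. Of the missing peaks, 155 (2.18%) held 2 or more AP-1 matches, against 31 kept peaks (0.369%).

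Missing peaks stood lower in the IRF4 list than kept peaks, so shares were also compared at like places in the list. The Mantel-Haenszel odds ratio over 20 strata of place, for a match in missing against kept peaks, was 3.09 for AP-1 (95% interval 2.81 to 3.40). It was 2.64 (2.38 to 2.92) among peaks more than 1 kb from any TSS and 3.15 (2.34 to 4.23) within 1 kb. The difference was therefore present in promoters and away from them. Over parts 2 to 10 of 10 equal parts of the list, 16.1% to 28.5% of missing peaks and 7.81% to 11.2% of kept peaks held the site. With the BATF and IRF4 lists exchanged, as the antibody field has it, 691 peaks met the rule and the AP-1 odds ratio was 1.41 (0.944 to 2.12), which spans 1. All such intervals cover counting error over peaks of 1 library per condition and say nothing of the spread between animals.

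**Figure D1:**
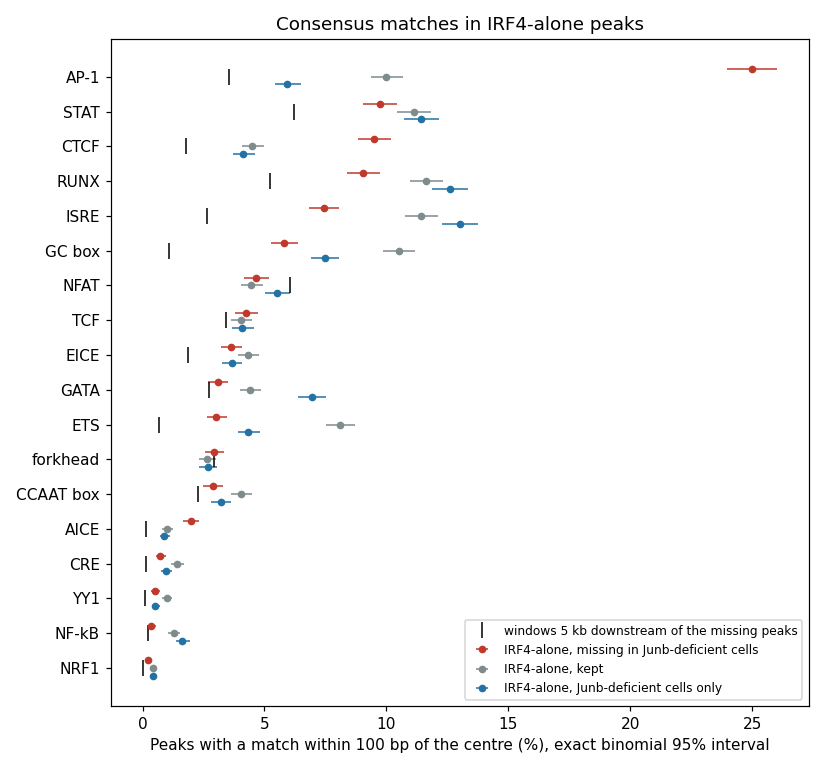
Share of IRF4-alone peaks with a consensus match within 100 bp of the centre (%, x axis) for 18 motifs (y axis), in peaks missing in Junb-deficient cells (red), kept peaks (grey) and peaks of Junb-deficient cells only (blue). Bars are exact binomial 95% intervals and black ticks are windows 5 kb downstream of the missing peaks. AP-1 stands at 24.98% in missing peaks against 10.0% in kept peaks and 5.93% in Junb-deficient-only peaks.

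AICE, the composite of an AP-1 and an IRF site, was rarer. It was matched in 140 missing peaks (1.97%) and 84 kept peaks (0.999%), with an odds ratio of 2.01 (1.502 to 2.68). Of the 140 missing peaks with AICE, 113 also held the AP-1 site. The AP-1 difference was as large outside these composites, where AP-1 matches in peaks without AICE gave an odds ratio of 3.10 (2.81 to 3.42), at 23.4% against 9.26%. With the BATF and IRF4 lists exchanged the AICE odds ratio turned direction, to 0.706 (0.323 to 1.54).

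The AP-1 share of missing peaks was similar near to and far from listed JunB and BATF peaks. The nearest JunB peak lay at a median of 23136.5 bp from missing and 22828.5 bp from kept peaks, and 25.5% and 26.4% of them had a JunB peak within 10 kb. For BATF, a peak lay within 10 kb of 16.3% and 17.3%. The surroundings of both classes were thus similar in these lists. Among the 5010 missing peaks with no JunB or BATF peak within 10 kb, 24.7% held the AP-1 site, against 10.1% of kept peaks. Among the 1486 with none within 50 kb, the share was 27.2%, against 11.7%. These cuts on distance were chosen after the data were seen.

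CTCF, the architectural DNA-binding factor, had the next largest difference in percentage points among motifs that were more common in missing peaks. Its consensus was present in 675 missing peaks (9.50%) and 379 kept peaks (4.51%), with 1.77% in the downstream windows and 1.63% at IRF4 peaks that overlapped JunB or BATF. The odds ratio at like places in the list was 1.76 (1.53 to 2.02), and 1.62 among peaks over 1 kb from a TSS. Place in the list moved with it. The CTCF share of missing peaks was 4.07% in part 5 of 10 of the list and 12.4% in part 10, and in the first 50% of the list the odds ratio was 1.34 (0.870 to 2.05), which spans 1. With the BATF and IRF4 lists exchanged it was 1.83 (0.410 to 8.13), which also spans 1. Over all IRF4 peaks of Junb-sufficient cells the CTCF share was 4.21%, close to that of the kept peaks. Few peaks held both sites, with 47 of the missing peaks matching AP-1 and CTCF together.

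**Figure D2:**
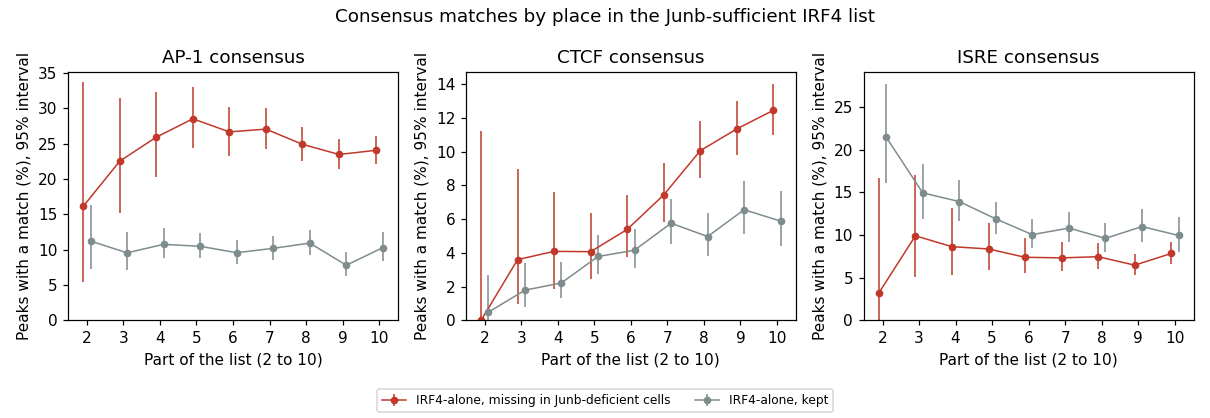
Share of missing (red) and kept (grey) IRF4-alone peaks with an AP-1, CTCF or ISRE match (%, y axes, exact binomial 95% intervals) by place in the Junb-sufficient IRF4 list, cut into 10 equal parts (x axes, 2 to 10). Part 1, with 30 IRF4-alone peaks, is left out. The AP-1 share is higher in missing peaks in each part shown, while the CTCF curves lie apart mainly in parts 8 to 10, reaching 12.4% of missing peaks in part 10.

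The matches were centred on the peaks. An AP-1 match began and ended within 25 bp of the centre in 12.2% of missing peaks and 4.28% of kept peaks, and a CTCF match in 5.90% and 2.25%. The median distance of the nearest AP-1 match from the peak centre was 23 bp in missing and 28 bp in kept peaks, and for CTCF it was 14 bp and 20 bp. The CTCF curves ran close together beyond about 100 bp, whereas AP-1 remained somewhat higher in missing peaks there, at 0.844% against 0.416% of kept peaks in the bin from 100 to 125 bp.

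**Figure D3:**
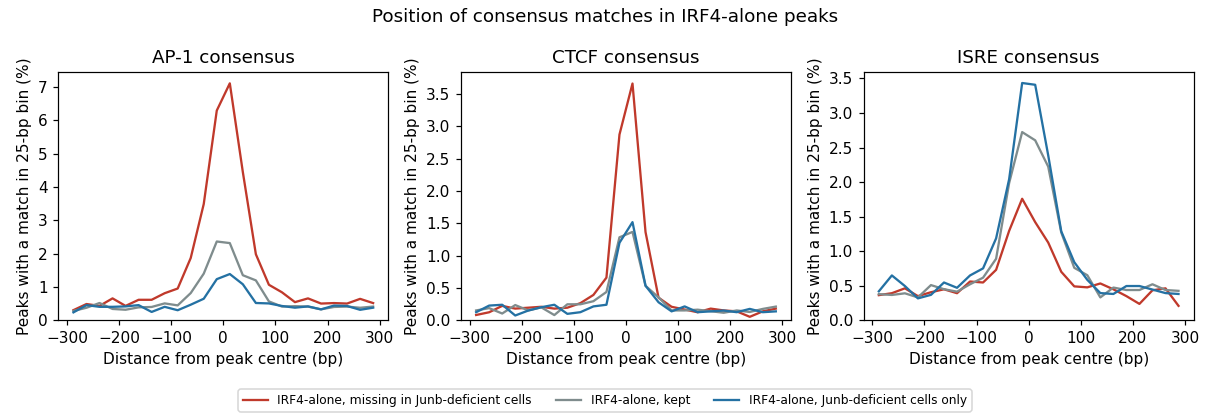
Share of peaks with a match in each 25-bp bin (%, y axes) against distance from the peak centre (bp, x axes) for AP-1, CTCF and ISRE. AP-1 and CTCF are highest at the centre of missing peaks (red) and ISRE at the centre of kept (grey) and Junb-deficient-only (blue) peaks. Away from the centre the curves are low in all classes, with AP-1 somewhat higher in missing peaks (0.844% against 0.416% of kept peaks from 100 to 125 bp).

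The interferon-type site went the other way. ISRE, where IRF proteins bind without an AP-1 partner, was present in 528 missing peaks (7.43%) and 961 kept peaks (11.4%), a difference of -4.00 points (-4.91 to -3.08). The odds ratio was 0.667 (0.592 to 0.750), and 0.550 (0.484 to 0.624) over 1 kb from a TSS, where 8.05% of missing and 14.5% of kept peaks had a match. Within 1 kb of a TSS it was 0.880 (0.614 to 1.26), which spans 1. Over all IRF4 peaks of Junb-sufficient cells the ISRE share was 9.49%. The missing peaks still exceeded the 2.64% of the downstream windows. EICE was matched in 3.63% of missing and 4.33% of kept peaks, with an odds ratio of 0.896 (0.753 to 1.07) that spans 1.

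Sites of other T cell factors were also rarer in missing than in kept peaks. RUNX (TGTGGTT), bound by the RUNX proteins that act with FOXP3, was found in 9.03% and 11.6%. The GATA site (AGATAAG) was found in 3.08% and 4.41%, and NF-kB in 0.366% and 1.27% (26 and 107 peaks). Their odds ratios were 0.758 (0.678 to 0.848), 0.675 (0.563 to 0.809) and 0.348 (0.223 to 0.544), and all of them kept this direction with intervals below 1 over 1 kb from a TSS. In the first 50% of the list NF-kB gave 0.548 (0.244 to 1.23), which spans 1, while the intervals of RUNX and GATA stayed below 1. The ETS site (CCGGAAG), common in promoters, was found in 3.03% and 8.10%, with an odds ratio of 0.384 (0.326 to 0.453). With the BATF and IRF4 lists exchanged the odds ratio was 0.663 (0.342 to 1.28) for GATA and 0.567 (0.133 to 2.42) for ETS, and both span 1. In all, with intervals widened by Bonferroni for the 18 motifs searched, 3 were more common in missing peaks (AP-1, AICE and CTCF), 9 were less common and 6 spanned 1. The 9 also held the GC box (GGGGCGG) and YY1 (AAGATGGCG) sites, which are typical of promoters. The CCAAT box (AGCCAAT) was a further member of the 9, as was CRE (TGACGTCA), the site of CREB and ATF factors. Over 1 kb from a TSS only ISRE, RUNX, NF-kB and GATA remained among the less common, and AP-1, AICE and CTCF remained the more common. NFAT (TGGAAAA), STAT (TTCNNNGAA), NRF1, forkhead (TGTTTAC) and TCF (CTTTGAT) spanned 1, as did EICE. A total of 2349 missing peaks (33.1%) and 33.4% of kept peaks held none of the 18.

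The mirror class was used to see whether these features belong to any IRF4-alone peak present in a single genotype. A total of 7837 IRF4 peaks of Junb-deficient cells overlapped no Junb-sufficient IRF4 peak and no JunB or BATF peak, and they too stood low in their list, at a median of 73.3% of its length, against 79.3% for the missing peaks and 61.5% for the kept peaks. Over all Junb-deficient IRF4 peaks, 30.4% had no Junb-sufficient counterpart. AP-1 was present in 5.93% of the mirror class, 19.0 points (17.9 to 20.2) below the missing peaks and below the kept peaks as well. For odds ratios, the mirror class was set against the 8434 IRF4-alone peaks of Junb-deficient cells that overlapped a Junb-sufficient IRF4 peak. Strata of place were those of the Junb-deficient list. The AP-1 odds ratio was then 0.565 (0.499 to 0.640). CTCF was present in 4.13% of the mirror class and ISRE in 13.0%, so that missing minus mirror peaks was -5.57 points (-6.53 to -4.61) for ISRE. The GATA site was present in 6.94%. EICE did not separate the classes, at a difference between missing and mirror peaks of -0.0186 points (-0.619 to 0.587). AP-1 and CTCF were thus high in the class missing from Junb-deficient cells and not in the class found only there, but the JunB and BATF lists used to define both came from Junb-sufficient cells.

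Missing peaks lay at promoters less often than kept peaks. The peak centre was within 1 kb of a protein-coding TSS for 1072 missing peaks (15.1%, 14.3 to 15.9%), 2763 kept peaks (32.9%, 31.9 to 33.9%), 20.4% of the mirror class and 16.7% of all IRF4 peaks of Junb-sufficient cells. The kept peaks stood apart from the whole list, and the missing peaks were close to it. The odds ratio of missing against kept peaks was 0.398 (0.366 to 0.433). That of the mirror class, against the IRF4-alone peaks of Junb-deficient cells with a Junb-sufficient counterpart, was 0.514 (0.477 to 0.553). A distance of 10 to 100 kb from a TSS was found for 47.9% of missing peaks, 38.4% of kept peaks and 47.4% of all IRF4 peaks. The median distance to the nearest TSS was 14988.5 bp for missing and 8341 bp for kept peaks. Their centres fell in introns of protein-coding genes in 43.8% and in exons in 5.84%, against 37.4% and 10.3% of kept peaks and 45.0% and 5.99% of all IRF4 peaks. The GC content of the 201-bp window had a median of 45.3% in missing and 48.3% in kept peaks. Among peaks over 1 kb from a TSS both medians came closer, at 44.3% and 44.8%.

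**Figure D4:**
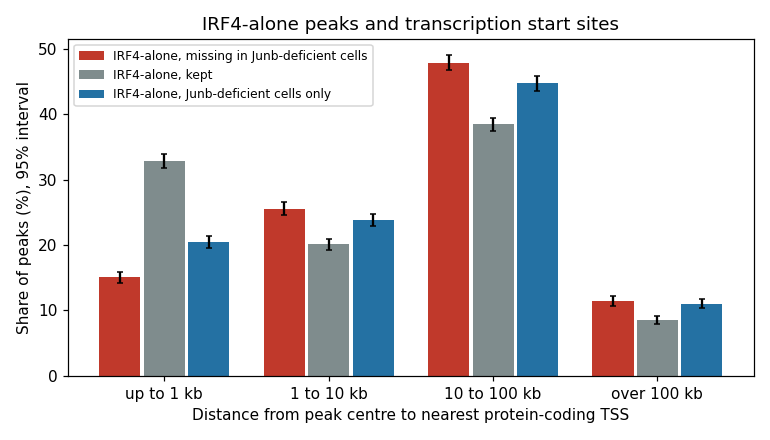
Share of IRF4-alone peaks (%, y axis) by distance from the peak centre to the nearest protein-coding TSS (x axis), for missing (red), kept (grey) and Junb-deficient-only (blue) peaks. Bars start at 0 and carry exact binomial 95% intervals. Up to 1 kb the shares are 15.1%, 32.9% and 20.4%.

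The lists give each peak a place, whose meaning the headers do not state, and the missing peaks were concentrated low in the list. Their median place was 24644.5 of 31093, and 6298 of them (88.6%) stood in the last 50% of the list, against 67.6% of kept peaks. IRF4 peaks at JunB or BATF had a median place of 8455. The missing share of IRF4-alone peaks was 4 of 30 in part 1 of 10 of the list, 18.1% in part 3, 41.9% in part 7 and 68.1% in part 10. A similar slope held in the mirror direction, where 26.4% of the Junb-deficient IRF4-alone peaks of part 1 and 67.2% of part 10 had no counterpart. A peak close to the calling threshold in one library and below it in the other cannot be told apart here from a site that lost IRF4.

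**Figure D5:**
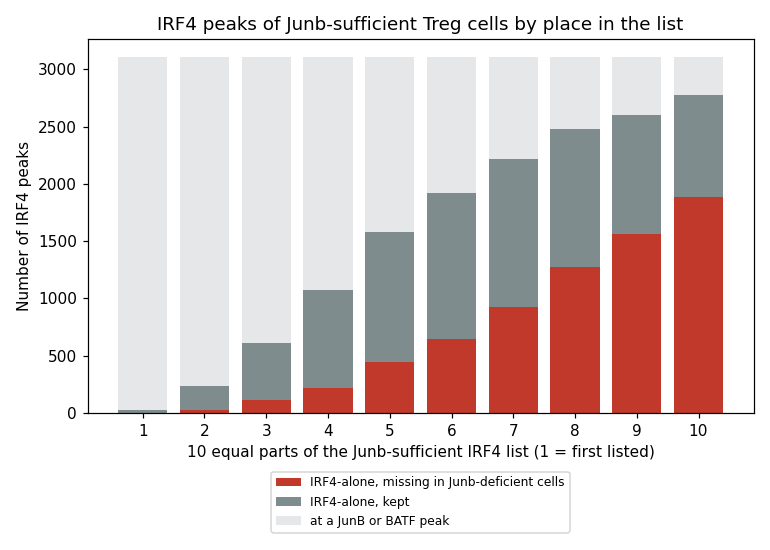
Number of Junb-sufficient IRF4 peaks (y axis) in each of 10 equal parts of their list (x axis, 1 = first listed), split into missing (red) and kept (grey) IRF4-alone peaks and peaks at JunB or BATF (light). The missing peaks grow from 4 in part 1 to 1888 in part 10.

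Few missing peaks lay just outside the overlap rule. The gap to the nearest Junb-deficient IRF4 peak had a median of 14546.5 bp, and 20 missing peaks (0.281%) had such a peak within 100 bp and 461 (6.49%) within 2 kb. The 5 smallest gaps were 13 bp in 3 peaks and 18 bp in 2. On the other side, the smallest overlaps of kept peaks were 1, 3, 17, 21 and 26 bp, with a median of 576 bp over all kept peaks. Most peaks of both classes were far from the limit of 1 bp, but these are the values the rule used. The median gap was close to the spacing of the list itself, since the nearest other Junb-sufficient IRF4 peak lay at a median of 14808 bp. With peak centres within 100 bp as the rule, 9642 peaks were missing in place of 7106. Of the putative peaks of each IRF4 library, 36.2% to 37.4% had been removed by the filter that asks for 4-fold more tags than in the surrounding 10 kb, and its part in which peaks were missing was not tested.

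The highest-listed missing peak, at place 72, lay on chromosome 11 from 3093475 to 3094087, in an intron of Drg1 and 315 bp upstream of a TSS of Sfi1, which encodes a centrosomal protein. It held an AP-1 match, and the nearest Junb-deficient IRF4 peak was 9428 bp away. The next stood only at place 2658. It lay 1298 bp upstream of Bzrap1, with a JunB peak at a gap of 80 bp. The third, on chromosome 1 from 60816806 to 60817418 in an intron of Cd28, the gene of the main costimulatory receptor of T cells, had a JunB peak 51 bp away and a Junb-deficient IRF4 peak 820 bp away. These 2 were IRF4-alone by a narrow margin. That margin depended on peak width, since the headers record a peak size of 150 bp for JunB and 612 bp for IRF4. With JunB peaks widened to the IRF4 width, 7044 peaks met the rule in place of 7106. The others of the first 10 lay nearest to Coro2a, which encodes an actin-binding coronin, Mapkapk2, a kinase downstream of p38, Rnf149, a ubiquitin ligase, Cyth1, an ARF exchange factor, Smndc1, a splicing factor, Cd200r1, and Map3k8, a kinase upstream of ERK. Their gaps to a Junb-deficient IRF4 peak ranged from 489 bp near Smndc1 to 11720 bp in Cd200r1. Of the 10, 2 held an AP-1 match, those near Sfi1 and Smndc1.

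Among genes, Crtc3, which encodes a coactivator of CREB, had the most missing peaks within 100 kb of its TSSs, 8 of 18 IRF4 peaks, with 7 kept and 3 Junb-deficient-only peaks. Arhgap26, a RhoA regulator, Coro2a, Pde4d, a cAMP phosphodiesterase, and Zfp324, a zinc finger gene, each had 7. The 7 of Zfp324 were counted for its neighbour Zfp446 as well. Coro2a had 17 IRF4 peaks and 0 Junb-deficient-only peaks. Arhgap26, in contrast, had 31 IRF4 peaks, of which 18 lay at JunB or BATF. These genes have the highest counts of 22238 protein-coding genes, whose medians were 1 missing peak and 4 IRF4 peaks. The counts cover all TSSs of a gene, so a gene with distant TSSs takes in more sequence, and gene length was not accounted for.

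By gene list, missing peaks were spread widely and seldom at the gene. Over all 22238 protein-coding genes, 57.1% had a missing peak within 100 kb and 14.9% within 10 kb. Of 15 effector Treg genes, 11 had one within 100 kb and 5 within 10 kb: Il1rl1, which encodes the IL-33 receptor, Ebi3, a subunit of IL-35, Entpd1, the ectoenzyme CD39, Ccr8, a chemokine receptor, and Itgae, the integrin CD103. Of the 14 Treg identity and T cell marker genes, 9 had a missing peak within 100 kb and only Lat, the adaptor of the T cell receptor, within 10 kb. IRF4 peaks of any class were also denser at these genes. Their median number within 100 kb was 11 for effector Treg genes, 7 for Treg identity and T cell markers and 4 for all genes. The missing share of IRF4-alone peaks within 100 kb, summed over genes, was 40.7%, 21.3% and 40.9%. Higher counts of missing peaks at effector Treg genes therefore went with more IRF4 peaks, not with a higher missing share. The lists are small, overlap in part, and were given no test.

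Of 20 proximal T cell receptor signalling genes, 16 had a missing peak within 100 kb and 6 within 10 kb: Lat, Plcg1, a phospholipase, Malt1, a paracaspase, Fyn, a SRC kinase, Cd247, the zeta chain, and Cblb, a ubiquitin ligase, with 2 peaks. Among 15 AP-1 family genes, 13 had one within 100 kb and 5 within 10 kb, Jun, Fos, Fosl1, Batf and Bach2. The peak of Batf lay 971 bp and that of Jun 550 bp from a Junb-deficient IRF4 peak, while the peak of Fos, in an exon, was 26339 bp from one. Of 9 interferon regulatory factor genes, 7 had a missing peak within 100 kb and Irf5 within 10 kb. Of 30 interferon-stimulated genes, 23 had one within 100 kb and 3 within 10 kb, Ifit2, Xaf1 and Eif2ak2, which encodes the kinase PKR. These lists too had more IRF4 peaks per gene than all genes, with medians within 100 kb of 9.5, 9, 9 and 7 in the order given. The missing share of IRF4-alone peaks was 37.0%, 43.1%, 37.0% and 33.1%, against 40.9% over all genes.

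Lists of other cell types had similar shares within 100 kb. Nearer to the gene, within 10 kb, their shares ran from 0% to 20%. This compared with 33.3% of effector Treg genes, 30% of T cell receptor signalling genes, 7.14% of Treg identity and T cell markers and 14.9% of all protein-coding genes. The lists were not alike in IRF4 peaks of any class within 10 kb. Such a peak was found at 93.3%, 95% and 92.9% of these 3 lists in the order given. For the lists of other cell types it was 30% to 50%, and for all genes 49.1%. The 10-kb shares were not corrected for this. Within 100 kb, 6 of 10 B cell markers, 10 of 12 myeloid markers, 5 of 10 liver genes and 7 of 10 neuronal genes had a missing peak. Within 10 kb these were 0 of the B cell markers, Mpo and Csf3r of the myeloid markers, Hnf4a and Fgb of the liver genes and Slc17a7 of the neuronal genes. The peak of Mpo lay in Lpo and 120 bp from a Junb-deficient IRF4 peak, and that of Csf3r was nearest to Mrps15. The peak of Hnf4a held a CTCF match.

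Some missing peaks of listed genes held a composite, AP-1 or ISRE match. Examples are shown for 6 genes, chosen after their values were seen, with the match in capitals. Peaks of Fosl1, Xaf1, Cblb and Mpo held such matches as well and are not shown. Il1rl1, Lat and Fyn held the AP-1 site, Cd247 an AICE match in an intron that is also an untranslated region of Pou2f1 on the other strand, Irf5 an EICE match beside an AP-1 match, and Eif2ak2 an ISRE match in its first exon, in the 5′ untranslated region. The paper reports Il1rl1 expression as promoted by BATF but not by JunB. The sequences at Cd247 and Eif2ak2 are given over 29 bp.
AP-1 match in an intron of Il1rl1, chr1:40494022-40494122: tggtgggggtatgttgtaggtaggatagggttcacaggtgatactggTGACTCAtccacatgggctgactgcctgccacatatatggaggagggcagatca
AP-1 match in an intron of Lat, chr7:133511335-133511435: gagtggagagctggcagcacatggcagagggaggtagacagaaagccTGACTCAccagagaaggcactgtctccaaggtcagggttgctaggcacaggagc
AP-1 match in an intron of Fyn, chr10:39225707-39225807: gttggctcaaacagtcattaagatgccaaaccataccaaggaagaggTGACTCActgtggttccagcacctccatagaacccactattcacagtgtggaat
AICE match in Cd247 and the UTR of Pou2f1, chr1:167795393-167795421: cccagcaTTTCACTCTGATTCActggcgc
EICE match in an intron of Irf5, chr6:29479154-29479254: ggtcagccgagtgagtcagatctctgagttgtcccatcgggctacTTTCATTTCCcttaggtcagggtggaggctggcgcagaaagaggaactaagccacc
ISRE match in the 5′ UTR of Eif2ak2, chr17:79281876-79281904: tctcttctgTTTCGTTTTCccggcggact
The peaks of Il1rl1 and Irf5 centred 611 bp downstream and 85 bp upstream of a TSS. The nearest JunB peak lay 7237 bp from the Il1rl1 peak and 26889 bp from the Lat peak, and 13993 bp from the Fyn peak. The rule itself excludes overlap with a JunB peak, so nothing was read from these distances. The nearest Junb-deficient IRF4 peak was 9110 bp from the Il1rl1 peak, 9065 bp from the Lat peak and 27458 bp from the Irf5 peak.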

How the data were processed

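ChIP-seq peak lists of 4 libraries were analysed. Per the labels and the paper's methods, the authors used Bowtie2 for alignment to mm9, kept uniquely placed reads and called peaks with HOMER (4.8 in the submitters' processing notes) in each library, without a control in the recorded command, at a false discovery rate of 0.001, 4-fold over the surrounding 10 kb and at most 1 tag per bp. The deposited columns are positions and a score, which is 1 for every peak and was not used. After the limit of 1 tag per bp, 16.0 to 17.9 M tags (M for mega) were recorded. Peak widths in the IRF4 list of Junb-sufficient cells were 613 bp for 31090 of 31093 peaks.

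Positions were counted from 1. Overlap was at least 1 bp. TSSs (69976 protein-coding positions), introns and exons came from the GENCODE annotation of NCBIM37, the same assembly as mm9, and all peaks lay within its chromosome lengths. Tables of other builds were not used. The place in the list was the order of rows, which the headers do not explain. Shares carry exact Clopper-Pearson 95% intervals and classes were compared by Mantel-Haenszel odds ratios over 20 strata of place. Intervals cover counting error only. No p-value was computed, since each condition had 1 deposited list, although the paper states that ChIP-seq was repeated. Python 3.11.15, NumPy 2.4.6, SciPy 1.17.1 and matplotlib 3.10.9 were used, and the procedures were tested on simulated data.

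The members, the 10 gene lists and the 18 motifs were chosen with earlier results of these data known. Genes were named by rule: the 10 missing peaks highest in the list, the 5 genes with most missing peaks within 100 kb, listed genes with one within 10 kb, and for each of 5 motifs the 2 highest peaks with a match. Alternatives changed the overlap, the width of JunB peaks, the part of the list, the strata, the motif window, the TSS set and the exchange of the BATF and IRF4 lists.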

Additional observations from a re-analysis of the deposited data

How the results depend on the processing

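No paired analysis was possible because each condition had 1 library, and for the same reason no library could be left out. The odds ratios for AP-1 (2.45 to 3.40), AICE (1.52 to 2.20), ISRE (0.550 to 0.737) and promoters (0.363 to 0.685) kept their direction and their side of 1 under every alternative other than the exchange of BATF and IRF4. Under the exchange, ISRE at 0.541 (0.308 to 0.949) and promoters at 0.597 (0.377 to 0.947) kept both as well. With the lists exchanged, 691 peaks met the rule, 9.41% near a TSS, GC 38.8% and 0.498 points below kept peaks (-0.498), and shares were 5.35% for ISRE, 2.89% for AICE, 20.8% for AP-1 and 1.74% for CTCF. The odds ratios were then 0.706 for AICE, 1.41 for AP-1 and 1.83 for CTCF, all spanning 1 as did GATA and ETS, and turned direction for EICE (1.964), GC box (1.73), CCAAT box (1.33), forkhead (0.736) and TCF (0.779). In the first 50% of the list there were 808 missing peaks, with 20.3% near a TSS, GC 46.3% (-1.49 points), ISRE 8.42%, AP-1 26.5% and CTCF 3.84%. The CTCF odds ratio was 1.34, and NFAT (0.779), NRF1 (1.16) and forkhead (0.968) turned. With centres within 100 bp as the rule, the TSS share was 20.6%, GC 46.3% (-0.995 points), AP-1 21.6%, CTCF 7.83%, forkhead 0.983 and TCF 0.968. With 50% overlap, they were 17.5% near a TSS, -1.99 points of GC and 23.7% for AP-1. With TSSs of all genes the TSS share was 16.5% and with 5 kb it was 28.2%, and GC of whole peaks was 45.0%. Motif windows of 50 bp gave ISRE 5.18%, AP-1 20.0% and CTCF 8.25%, and of 200 bp 10.6%, 28.6% and 10.7%. In 2 alternatives chosen after seeing the data, peaks over 1 kb from a TSS gave GC 44.3% (-0.498 points), AP-1 27.6%, NFAT 0.928, CCAAT box 1.09 and TCF 0.941, and peaks with no JunB or BATF peak within 10 kb gave CTCF 10.3% and TCF 0.991. Of the remaining values, which do not answer a main comparison, 220 kept their direction and call, 55 moved, 13 lost and 5 gained a call. The cause of these changes was not tested. No tag count per peak was used here, so what depth limits could not be measured.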

Other observations

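The places of kept IRF4-alone peaks in both IRF4 lists were set side by side by motif. Each kept peak was described by its place in the Junb-deficient and in the Junb-sufficient list, as a percentage of list length. Those with an AP-1 match (841) had a median difference, Junb-deficient minus Junb-sufficient, of 1.94 points, and those without had -4.82 points, a positive value being further down the list. The median was 2.88 points with a CTCF match and -4.55 without, -8.41 with an ISRE match and -3.54 without, -11.3 with a GATA match and -3.78 without, and -11.7 with an NF-kB match and -4.07 without. The lists differ in length and make-up, come from 1 library each, and set which peaks counted as kept, so these values are not independent of the choice of peaks and are not read as a change in binding.

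By chromosome, the missing share of IRF4-alone peaks ranged from 41.4% on chromosome 7 to 50.5% on chromosome 14 among the autosomes, and was 46.8% on chromosome X. The 100-kb window with the most missing peaks lay on chromosome 3 from 79037876 to 79133541, in intergenic sequence nearest to Rapgef2 and Gm17359, and held 6 missing and 3 kept peaks, 0 IRF4 peaks at JunB or BATF and 4 Junb-deficient IRF4 peaks.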
